A study of Mus musculus with 6 samples.

Results

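The genes described here are 41 interferon response genes, listed by name for this work with earlier results of these data known, out of 24061 genes in the deposited count table. All 41 were found in the table and all 41 passed the filter on low counts, which kept 16089 genes. Bulk RNA sequencing was run on lungs of 2 groups of mice, with 3 samples each. The control group had the genotype CCSP/- and the other group CCSP/TGFalpha, called TGFalpha below, and every mouse in both groups was on doxycycline for 3 weeks. In such mice the promoter of CCSP, the club cell secretory protein, directs a doxycycline-dependent transgene to lung epithelium. TGFalpha, a ligand of the EGF receptor, is the transgene product, and the series concerns the lung fibrosis that it induces. The age and strain of the mice, and whether each library came from a separate animal, are not given in the sources used here, so the p-values measure the spread between these samples, which may be technical.

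Interferons are secreted when cells sense viral nucleic acid or when lymphocytes are activated. Type I and type III interferons act through receptor-bound Janus kinases on a complex of STAT proteins with Irf9, which binds the interferon-stimulated response element (ISRE) of its target genes. Interferon-gamma acts through a STAT dimer that binds the gamma-activated site (GAS), and through Irf1, which it induces. The induced genes include antiviral proteins, GTPases that attack the membranes around pathogens, and the machinery that loads peptides onto MHC class I. In lung, epithelium, endothelium and macrophages all respond.

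Promoter sequences show letters that some of these genes share. The promoter table of RefSeq (GRCm38.p6; 250 bases before to 50 after each start) held 31 of the 41 members. The ISRE core, searched as GAAANNGAAA on both strands at every listed start, was present for 18 of these 31 (58.1%), against 3.99% of the 27025 genes in the table. The GAS letters TTCNNNGAA, which read the same on both strands, were present for 11 of 31 (35.5%), against 9.55% of all genes. Both patterns were counted independently, so they may overlap in other genes. A match is a description of the letters and not of binding. All 7 GTPase genes in the table held the ISRE core and 4 of them also the GAS letters, while the core was found for 7 of 14 antiviral effectors, all 3 sensors and brakes, 1 of 4 signalling genes and 0 of 3 immunoproteasome and peptide transport genes. Below are the 180 bases that end just before a transcript start in the RefSeq table for 8 of these genes. Rsad2 is the member that passed the test, and Ifit1 and Isg15 are effectors or modifiers with near-equal levels in the groups. The other 5 are GTPase genes, among them all 4 with both patterns. Gbp2 and Irgm1, GTPase genes with the core but without the GAS letters, are not shown. For Gbp3 the start used lies inside the gene's annotated span, shortly after its first base, and for the other 7 it is the 5′ end of the span. Each runs 5′ to 3′ along the gene's strand, with capitals for the ISRE core (on either strand, as GAAANNGAAA or its reverse complement) and the GAS letters.
Rsad2 (chr12:26456453-26456632, minus strand): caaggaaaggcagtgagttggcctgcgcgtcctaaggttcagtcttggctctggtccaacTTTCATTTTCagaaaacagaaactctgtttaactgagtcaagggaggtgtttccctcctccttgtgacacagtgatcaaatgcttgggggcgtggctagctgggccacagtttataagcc
Ifit1 (chr19:34640709-34640888, plus strand): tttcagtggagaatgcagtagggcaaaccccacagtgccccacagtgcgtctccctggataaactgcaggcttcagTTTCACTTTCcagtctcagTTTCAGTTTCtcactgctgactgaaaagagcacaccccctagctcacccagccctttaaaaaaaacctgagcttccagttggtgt
Isg15 (chr4:156200819-156200998, minus strand): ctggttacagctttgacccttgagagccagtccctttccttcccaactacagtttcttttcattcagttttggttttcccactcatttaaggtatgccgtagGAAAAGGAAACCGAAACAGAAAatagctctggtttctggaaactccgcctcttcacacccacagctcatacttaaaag
Gbp3 (chr3:142559864-142560043, plus strand): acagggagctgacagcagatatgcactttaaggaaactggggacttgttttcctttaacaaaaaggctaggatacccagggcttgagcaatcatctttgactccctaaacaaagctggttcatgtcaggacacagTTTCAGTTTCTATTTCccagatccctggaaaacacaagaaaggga
Gbp5 (chr3:142496754-142496933, plus strand): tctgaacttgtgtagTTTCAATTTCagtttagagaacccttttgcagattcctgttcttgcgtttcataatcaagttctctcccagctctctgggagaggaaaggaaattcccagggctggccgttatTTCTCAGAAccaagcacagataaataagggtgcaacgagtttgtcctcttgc
Gbp7 (chr3:142530156-142530335, plus strand): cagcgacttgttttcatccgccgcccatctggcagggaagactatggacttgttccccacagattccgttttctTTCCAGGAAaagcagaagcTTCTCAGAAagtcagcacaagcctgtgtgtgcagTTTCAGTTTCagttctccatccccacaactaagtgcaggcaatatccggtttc
Igtp (chr11:58199376-58199555, plus strand): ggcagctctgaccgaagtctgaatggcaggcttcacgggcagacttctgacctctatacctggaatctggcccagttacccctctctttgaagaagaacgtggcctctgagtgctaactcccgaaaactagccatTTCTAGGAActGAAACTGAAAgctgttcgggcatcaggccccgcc
Irgm2 (chr11:58214797-58214976, plus strand): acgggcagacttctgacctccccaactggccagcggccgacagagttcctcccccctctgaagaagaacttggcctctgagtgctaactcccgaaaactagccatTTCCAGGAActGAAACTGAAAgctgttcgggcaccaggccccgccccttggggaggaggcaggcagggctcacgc

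In Rsad2 the core begins 120 bases before the start and in Ifit1 a pair of cores begins 104 and 85 bases before it. In Isg15 3 overlapping cores begin 78, 72 and 66 bases before the start. Igtp and Irgm2, neighbours on chromosome 11, share the arrangement of a GAS match followed on the same strand by the ISRE core, with the same pair of bases between them. Gbp5 and Gbp7, neighbours on chromosome 3, hold both patterns further apart. Among the 31 genes, the median log2 fold change was -0.57 for the 18 with the core and -0.33 for the 13 without, with ranges of -1.41 to 0.41 and -0.71 to 1.61 that overlap. The 18 include all 7 GTPase genes in the table, whose median was -0.91, so the sets also differ in role group. A relation of the core to the fold change was not tested.

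The libraries held 21479006 to 24914322 counts. The mouse Tgfa row did not separate the groups (25.8 ± 2.94 and 27.5 ± 2.09 CPM, counts per 1000000 counts of the scaled library size; mean ± SD, n = 3 each), and it holds transgene reads only as far as the transgene matches the mouse gene. Defining lung markers were present in every library, with summed alveolar type 2 markers of 17862 to 23608 CPM in controls and 19814 to 20566 CPM in TGFalpha. Several libraries stood apart in other cell types. Summed skeletal muscle markers were 1459 CPM in control replicate 1 and 2526 CPM in TGFalpha replicate 1, against 53.4 to 70.6 CPM in the other 4 libraries. Summed alveolar macrophage markers were 18005 CPM in control replicate 1 and 15564 CPM in TGFalpha replicate 2, against 2280 to 7586 CPM elsewhere. Fewer cells of a type and less RNA per cell cannot be told apart in bulk samples.

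With edgeR few interferon response genes passed the test, and the number of calls depended on the tool. Of the 41, 1 fell and 0 rose at an edgeR adjusted p under 0.05, where 3.29% of all genes tested fell and 5.03% rose. The share of members that fell (2.44%) was near the share of all genes. At an unadjusted p under 0.05, 11 members were lower and 1 was higher, together 29.3% of members against 27.0% of all genes. limma-voom also called 1 member, and DESeq2 called 7 lower (17.1%) and 0 higher, where it called 7.3% of all genes lower and 7.63% higher. The 7 were Rsad2, Ifih1, Parp14, Gbp4, Gbp5, Gbp7 and Tap1. Most fold changes had the same sign, with 34 of 41 negative and a median log2 fold change of -0.51, beside 49.1% negative and a median of 0.01 over all genes. All 3 TGFalpha libraries lay below all 3 controls for 10 members (24.4%), against 15.5% of all genes, and above them for 0 members, against 17.7% of all genes. Those 10 were Ifih1, Dhx58, Ifit2, Rsad2, Cmpk2, Ifi35, Parp14, Gbp4, Gbp7 and Tap1.

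**Figure D1:**
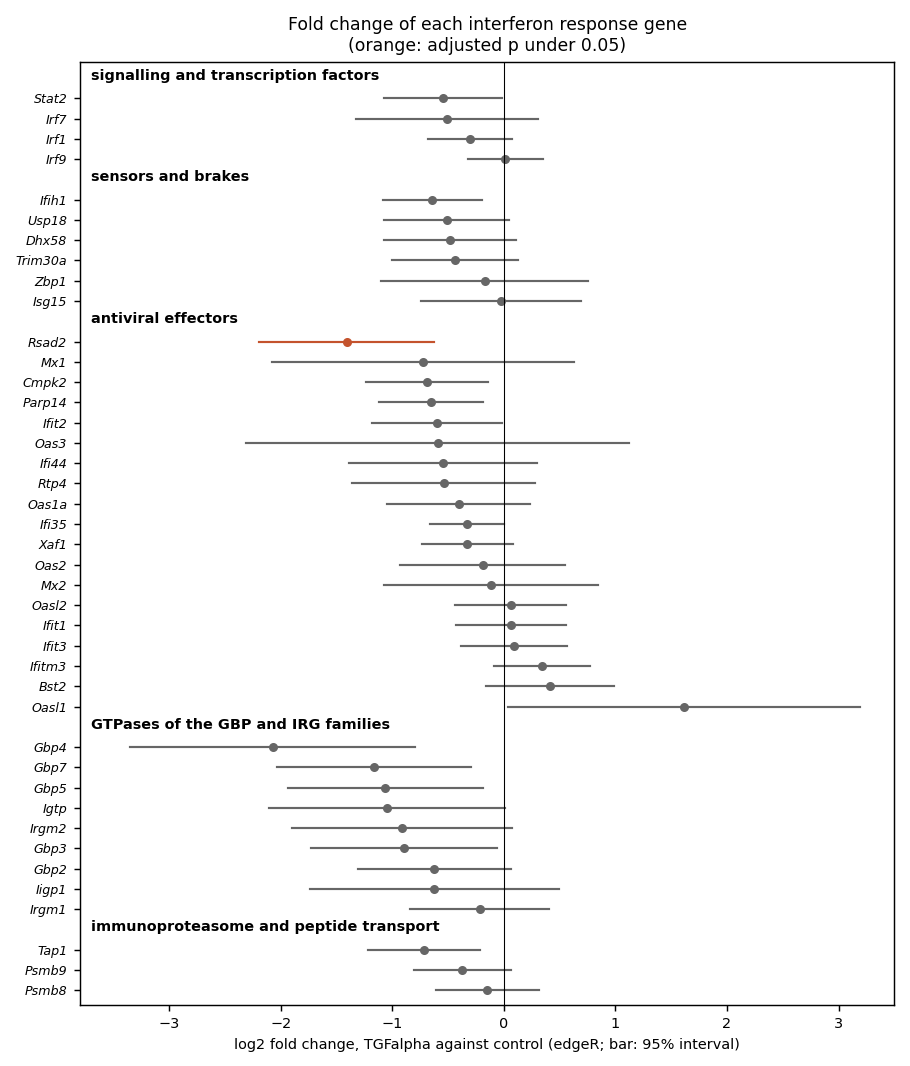
Log2 fold change of each of the 41 interferon response genes, TGFalpha against control (x axis), with its 95% interval from edgeR, grouped by role (y axis). Rsad2, in orange, is the 1 gene with an adjusted p under 0.05, and 34 of 41 points lie left of 0.

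Libraries of the same group differed in the levels of the members. Set against the control mean, the median log2 level over the 41 genes was -0.09, -0.21 and 0.24 in the controls, by replicate number. In TGFalpha it was -0.76, -0.04 and -0.49. TGFalpha replicate 2 thus lay within the range of the controls and the other TGFalpha libraries below it. TGFalpha replicate 1 was the lowest library for 25 of 41 members (61.0%), against 25.4% of all genes, and control replicate 3 was the highest for 23 (56.1%), against 17.7% of all genes. Summed leukocyte markers were 1531 and 1413 CPM in TGFalpha replicates 1 and 3 and 2408 CPM in TGFalpha replicate 2, with 1824 to 2721 CPM in controls. None of the 12 leukocyte markers passed the test with edgeR (smallest adjusted p = 0.134). Endothelial markers were lower in TGFalpha, with 5 of 15 called and sums of 1576 to 2844 CPM against 3082 to 5510 CPM in controls. T and NK cell markers had negative fold changes for 13 of 14 genes, with a median of -0.51 and 0 called by edgeR (5 at an unadjusted p under 0.05), and sums of 123.4 to 182.9 CPM against 176 to 268 CPM. Calls were also made for alveolar type 1 (3 of 8 lower), club and ciliated cell (3 of 9 lower), red blood cell (5 of 6 lower) and fibroblast markers (5 of 9 higher, with sums of 5627 to 8863 CPM against 1862 to 2030 CPM). Of 13 macrophage and monocyte markers, 3 were called higher and 0 lower, with a median log2 fold change of 0.33. Their sums overlapped, at 6456 to 14484 CPM in TGFalpha and 7784 to 18318 CPM in controls. Of 7 cardiac muscle markers tested, 1 was called lower. The part of any of these cells in the members' levels was not tested.

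**Figure D2:**
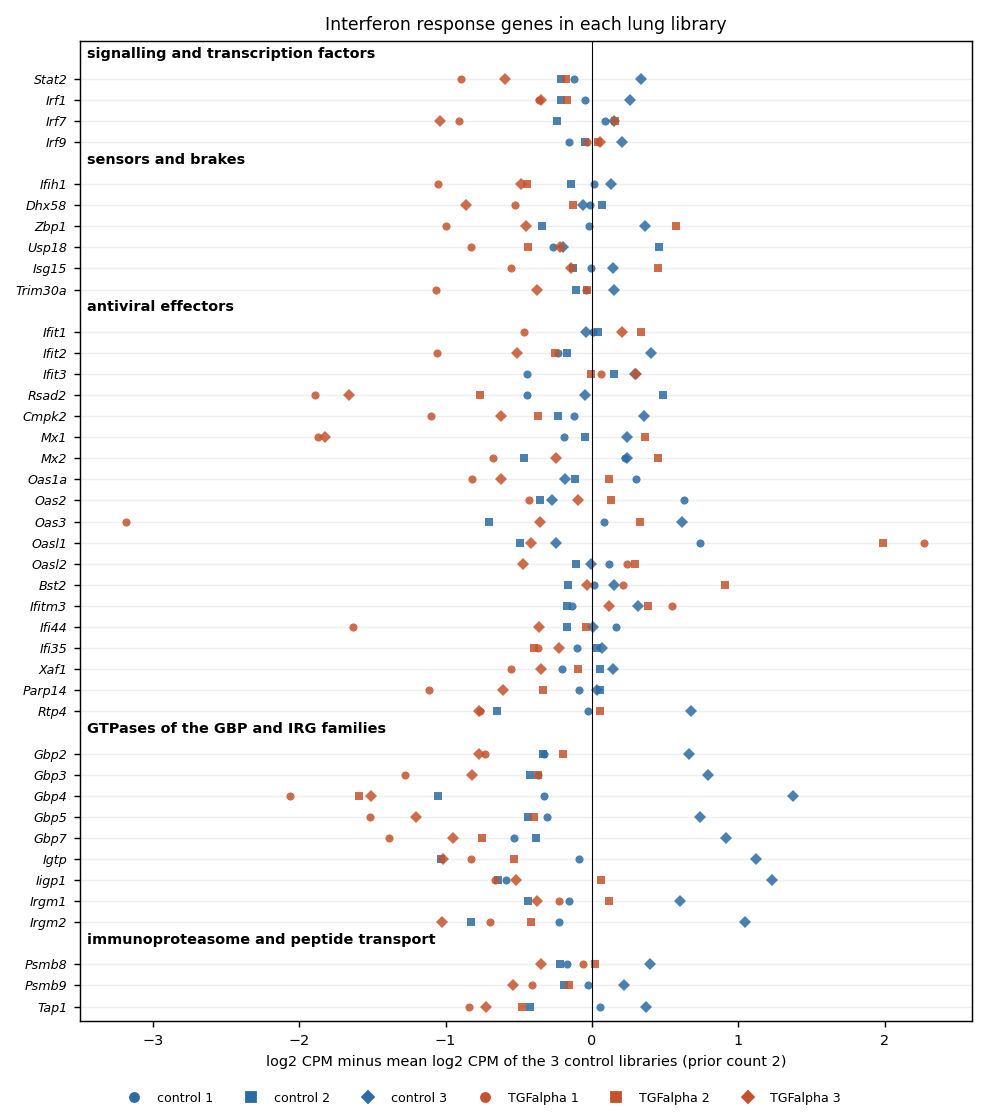
Level of each of the 41 genes in each library (log2 CPM minus the mean of the 3 controls, prior count 2), with blue for control, orange for TGFalpha, and circle, square and diamond for replicates 1 to 3. Control replicate 3 is the rightmost point for all 9 GTPase genes, and TGFalpha replicate 1 is the leftmost point for 25 of 41 genes.

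Among the signalling and transcription factor genes, none of 4 passed the test with edgeR or DESeq2, and 1 (Stat2) had an unadjusted p under 0.05. Stat2 encodes the STAT partner of Irf9 in the complex that binds the ISRE. It was at 31.9, 29.9 and 43.9 CPM in the controls, given here and below by replicate number, and at 18.7, 30.6 and 22.96 CPM in the TGFalpha libraries (log2 fold change -0.55 ± 0.23 SE, adjusted p = 0.170). TGFalpha replicate 2 overlapped the controls. Irf9, the DNA-binding subunit of the same complex, was at 46.3, 50.1 and 59.8 CPM in controls and 50.6, 53.2 and 53.6 CPM in TGFalpha. Its log2 fold change was 0.01, with a 95% interval of -0.32 to 0.35. Irf1, the factor induced by interferon-gamma, was at 88.1, 78.6 and 109 CPM against 71.1, 81.0 and 71.6 CPM (-0.30 ± 0.17, adjusted p = 0.275). Irf7, which amplifies type I interferon production, was low, at 7.99, 6.33 and 8.31 CPM against 3.95, 8.35 and 3.60 CPM (-0.51 ± 0.36, adjusted p = 0.395). TGFalpha replicate 2 was the highest of all 6 libraries for Irf7 and the other TGFalpha libraries were the lowest.

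Of the 6 sensors and brakes, all 6 had negative fold changes, 0 passed with edgeR and 1 (Ifih1) passed with DESeq2. Ifih1 encodes MDA5, a sensor of long double-stranded RNA. It was at 43.3, 38.7 and 46.9 CPM in controls and 20.6, 31.4 and 30.5 CPM in TGFalpha, with no overlap (-0.64 ± 0.19, edgeR adjusted p = 0.0793; DESeq2 adjusted p = 0.0307). Dhx58, the gene of the related regulator LGP2, was at 7.71, 8.16 and 7.44 CPM against 5.36, 7.07 and 4.23 CPM, again without overlap (-0.48 ± 0.26, adjusted p = 0.269). Usp18, which removes ISG15 from proteins and damps receptor signalling, was at 28.5, 47.1 and 29.9 CPM against 19.3, 25.3 and 29.4 CPM (-0.51 ± 0.24, adjusted p = 0.218). Trim30a was at 79.8, 75.9 and 91.2 CPM against 39.1, 80.0 and 63.1 CPM (-0.44 ± 0.25, adjusted p = 0.291). Isg15, the ubiquitin-like modifier whose promoter is shown above, had log2 fold change -0.03 with a wide interval of -0.74 to 0.69. Zbp1, a sensor of Z-form nucleic acid, was highest in TGFalpha replicate 2 (12.3 CPM) and lowest in TGFalpha replicate 1 (4.08 CPM).

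Rsad2 was the only antiviral effector of 19 that passed with edgeR. It encodes viperin, an enzyme that makes a chain-terminating nucleotide which stops viral RNA synthesis. Rsad2 (gene ID 58185; chromosome 12, 26442743 to 26456452) was at 26.5, 50.6 and 34.9 CPM in controls and at 9.65, 21.2 and 11.4 CPM in TGFalpha. Every TGFalpha library lay below every control. The log2 fold change was -1.41 ± 0.34 (95% interval -2.19 to -0.62, edgeR adjusted p = 0.0440, DESeq2 adjusted p = 0.000435), a level 2.65-fold lower. Leaving out control replicate 2 (adjusted p = 0.149) or 3 (0.139), or TGFalpha replicate 1 (0.142) or 3 (0.104), ended the call, and the fold change was negative in all 6 fits with 1 library left out. It was also lost without control replicate 1 and TGFalpha replicate 1 together (0.0694).

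Cmpk2 is the next gene on chromosome 12 (26469117 to 26479837) and encodes a kinase that supplies nucleotides used by viperin. Its levels were 23.4, 21.7 and 32.6 CPM in controls and 11.8, 19.7 and 16.5 CPM in TGFalpha, also without overlap (-0.69 ± 0.24, adjusted p = 0.110). Parp14, an ADP-ribosyltransferase, was at 121, 134 and 131 CPM against 59.5, 102 and 84.5 CPM (-0.65 ± 0.20, edgeR adjusted p = 0.0852, DESeq2 adjusted p = 0.0218). Ifit2 and Ifi35 were also lower in every TGFalpha library than in any control (log2 fold changes -0.60 and -0.33, adjusted p = 0.172 and 0.186). Per kilobase of exon Ifitm3, which blocks virus entry at endosomes, had the highest mean level of the 41 members (274 CPM per kb). It was at 147, 144 and 201 CPM in controls and 237, 211 and 176 CPM in TGFalpha (0.34 ± 0.19, adjusted p = 0.282), so the groups overlapped.

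Ifit1, Ifit3 and Oasl2 were among the effectors that lay close to equality in the mean. Ifit1, which binds viral RNA ends, was at 22.6, 23.2 and 21.9 CPM in controls and 16.3, 28.5 and 26.0 CPM in TGFalpha, spread on both sides of the controls. Ifit3 and Oasl2 had log2 fold changes of 0.09 and 0.06. Their 95% intervals (-0.38 to 0.57 and -0.44 to 0.56) still allow moderate changes in either direction. The GTPase gene Mx1 split the TGFalpha group, at 1.70, 8.31 and 1.76 CPM against 5.62, 6.23 and 7.62 CPM in controls (adjusted p = 0.464). Without TGFalpha replicate 2 its log2 fold change was -1.90 and its adjusted p 0.0328. A larger fall was fixed in advance there, because that library held the highest level of Mx1. Oasl1, an inhibitor of Irf7 translation, had the largest positive fold change (1.61 ± 0.69, adjusted p = 0.175). It was at 6.42 and 5.26 CPM in TGFalpha replicates 1 and 2, but at 0.922 CPM in TGFalpha replicate 3, within the controls' 0.871 to 2.17 CPM. Oasl1 passed only without TGFalpha replicate 3 (adjusted p = 0.0497), where a larger rise was fixed in advance, because that library was the lowest of its group. The Oas genes, whose products sense double-stranded RNA and activate RNase L, had log2 fold changes of -0.40 (Oas1a), -0.19 (Oas2) and -0.59 (Oas3), with adjusted p of 0.389, 0.741 and 0.646. Oas3 ranged from 0.340 CPM in TGFalpha replicate 1 to 5.84 CPM in control replicate 3. Bst2, which tethers budding virus to the cell, was at 20.7, 18.4 and 22.8 CPM in controls and 23.8, 38.6 and 20.1 CPM in TGFalpha (0.41 ± 0.25, adjusted p = 0.323). Of the 21 members not given in full by rule, 16 had negative fold changes, with a median of -0.33 and adjusted p from 0.158 upward. Levels of Mx1, Mx2, Oas3, Oasl1, Irf7, Isg15 and Dhx58 stayed under 10 CPM in all 6 libraries, where fewer reads limit the precision.

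**Figure D3:**
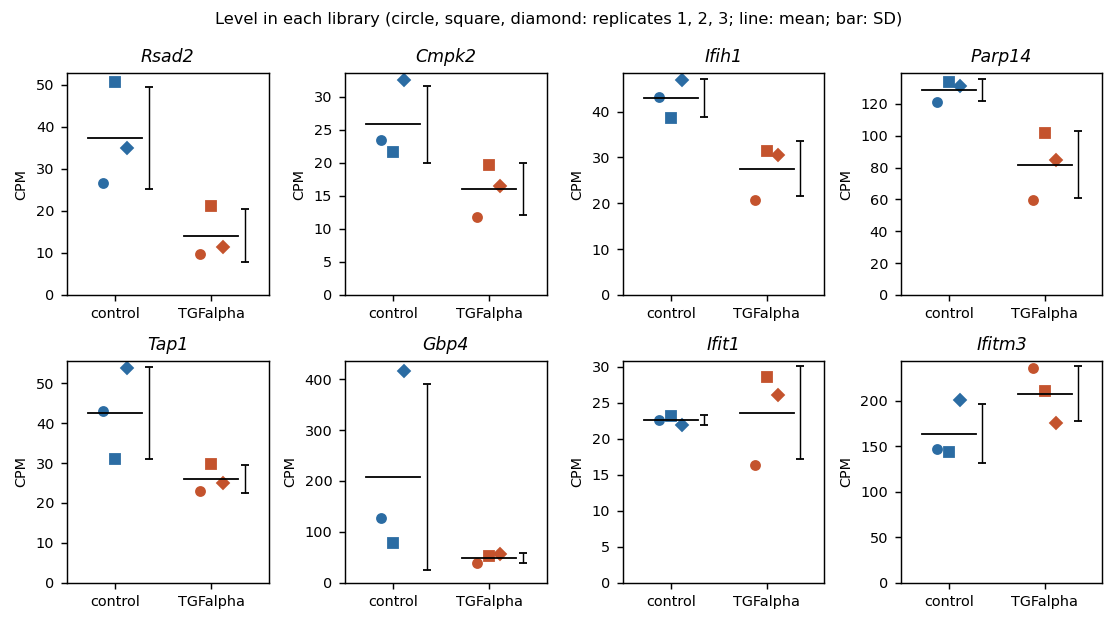
CPM of 8 interferon response genes in each library, with the group mean (line) and SD (bar), n = 3 per group. The groups do not overlap for Rsad2, Cmpk2, Ifih1, Parp14, Tap1 and Gbp4, and they overlap for Ifit1 and Ifitm3.

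The GTPases of the GBP and IRG families were the role group with the most negative median log2 fold change (-0.91), and 0 of 9 passed with edgeR. Some proteins of these families coat and break the vacuoles of intracellular pathogens, and the families are strongly induced by interferon-gamma. At an unadjusted p under 0.05, which 27.0% of all genes reached in either direction, 4 of 9 were lower, and DESeq2 called Gbp4, Gbp5 and Gbp7. Gbp4 (gene ID 17472; chromosome 5, 105115767 to 105139586) was at 128, 77.3 and 416 CPM in controls and 38.2, 53.1 and 56.1 CPM in TGFalpha (-2.07 ± 0.56, edgeR adjusted p = 0.0577). Gbp7 was at 117, 129.96 and 319.7 CPM against 64.7, 100.5 and 87.6 CPM (-1.17 ± 0.38, adjusted p = 0.0954). Neither gene overlapped between the groups. Without control replicate 3 their log2 fold changes were -1.07 and -0.56 (adjusted p = 0.121 and 0.245), and without control replicate 1 Gbp4 passed the test (0.0486).

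The same library was the highest of the 6 for all 9 GTPase genes. Gbp5 was at 39.9, 36.4 and 82.4 CPM in controls and 17.2, 37.4 and 21.3 CPM in TGFalpha (-1.06 ± 0.38, adjusted p = 0.119). Gbp2, the most abundant of the group per kilobase of exon (68.0 CPM per kb), was at 156, 155 and 311 CPM against 118, 171 and 115 CPM (-0.63 ± 0.30, adjusted p = 0.221). Iigp1, an IRG family GTPase, was at 105, 101 and 371 CPM against 99.8, 165 and 110.4 CPM (-0.62 ± 0.49, adjusted p = 0.445). Gbp3, Igtp, Irgm1 and Irgm2 had log2 fold changes of -0.89, -1.04, -0.22 and -0.91 (adjusted p = 0.158, 0.191, 0.645 and 0.214), and control replicate 3 stood at 80.8, 101, 135 and 200.3 CPM for them. The level in control replicate 3 was 1.86 to 4.06 times the mean of the other controls over the 9 genes, with a median of 2.58. A ratio of at least 1.5 was found for 9 of 9 GTPase genes, 13 of 41 members (31.7%) and 6.34% of all genes. The median ratio was 1.16 for the antiviral effectors, 1.15 for sensors and brakes, 1.28 for signalling genes and 1.45 for immunoproteasome and peptide transport genes. It was 0.99 over all genes. Control replicate 3 was also the highest library for all 3 immunoproteasome and peptide transport genes and 3 of 4 signalling genes. The same held for 2 of 6 sensors and brakes and 6 of 19 antiviral effectors, against 17.7% of all genes.

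Without control replicate 3 the GTPase group lay closer to 0. An upward shift was fixed in advance, because that library was the highest for all 9 genes. The median log2 fold change of the 9 genes was then -0.30, with 7 negative and 2 positive. The 2 positive ones were Iigp1 (0.27) and Irgm1 (0.14). For comparison, the median over all 41 members was -0.30 without that library, with 29 of 41 negative. Among 18 other interferon-gamma induced genes, 10 had a ratio of at least 1.5 and the range was 0.56 (Nos2) to 5.23 (Ido1). Most of these 10 were further GTPase genes (Gbp6, Gbp8, Gbp9, Gbp10, Gbp11, Tgtp1 and Tgtp2), and the rest were Cxcl10, Ido1 and Wars. Tgtp1 and Tgtp2 had near-equal ratios (3.98 and 4.10) and may not be independent measurements. Gbp6 was at 64.8, 37.1 and 159 CPM in controls and Ido1, a tryptophan-degrading enzyme induced by interferon-gamma, at 1.36, 1.01 and 6.21 CPM. The chemokine gene Cxcl9, also induced by interferon-gamma, had a ratio of 1.21, and Ifi30 and Serping1 had ratios of 0.77 and 0.76. Ifng itself gave 12, 6 and 24 counts in controls and 0, 15 and 3 counts in TGFalpha.

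**Figure D4:**
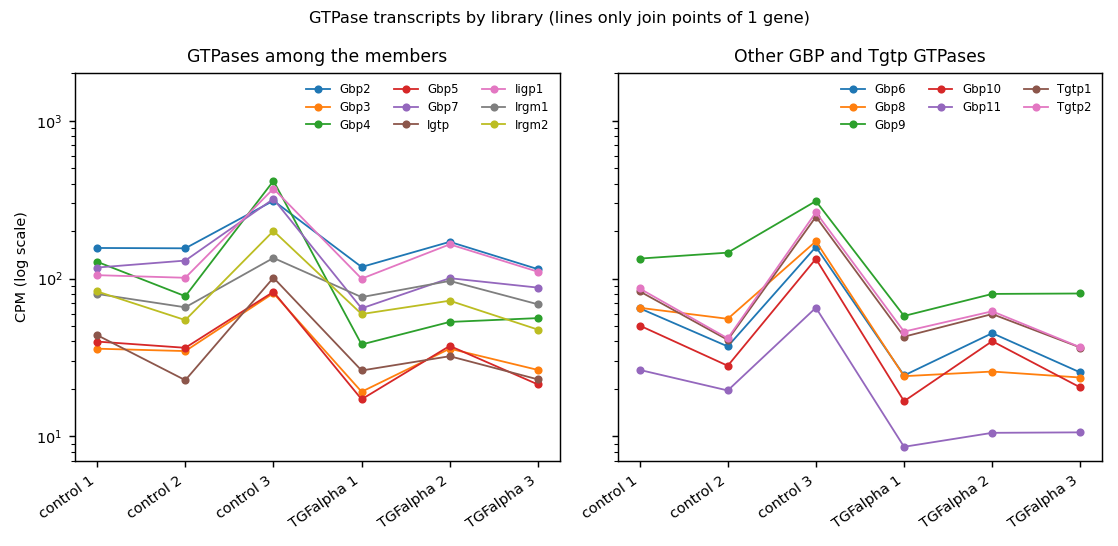
CPM (log axis) of the 9 GTPase genes among the members (left) and of 7 further GBP and Tgtp genes (right) in each of the 6 libraries, with lines that only join the points of 1 gene. Control replicate 3 is the highest point of every line, with Gbp4 at 416 CPM there and at 38.2 to 128 CPM elsewhere.

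Marker sums of other cells in control replicate 3 lay above, between or below those of the other controls. It had the highest sum of the 6 libraries for alveolar type 1 markers (4974 CPM, against 3279 and 4404 CPM in the other controls) and for club and ciliated cell markers (10208 CPM, against 8171 and 8048 CPM). Its summed T and NK cell markers were 231 CPM, between 176 and 268 CPM in the other controls. Summed endothelial markers were 5155 CPM there, beside 5510 CPM in control replicate 2, and the alveolar macrophage sum of 5688 CPM was the lowest of the controls. Neutrophil markers summed to 238 CPM, against 170 and 202 CPM in the other controls, and plasmacytoid dendritic cell markers to 559.8 CPM, against 344 and 479.6 CPM. The plasmacytoid dendritic cell sum was also the highest of the 6 libraries, beside 542 CPM in TGFalpha replicate 2. So was the cardiac muscle sum, at 156 CPM beside 153 CPM in control replicate 1. The part of these cells in the GTPase levels was not tested.

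Immunoproteasome and peptide transport genes were the remaining role group, and 0 of 3 passed with edgeR, with 1 (Tap1) at an unadjusted p under 0.05. Tap1, a subunit of the transporter that moves peptides into the endoplasmic reticulum, was at 43.0, 30.9 and 53.7 CPM in controls and 23.1, 29.8 and 25.1 CPM in TGFalpha, with no overlap (-0.71 ± 0.22, edgeR adjusted p = 0.0833, DESeq2 adjusted p = 0.0270). Psmb9 and Psmb8, catalytic subunits of the immunoproteasome encoded beside Tap1 on chromosome 17, had smaller differences. Psmb9 was at 15.5, 13.8 and 18.5 CPM against 11.9, 14.2 and 10.9 CPM (-0.37 ± 0.19, adjusted p = 0.251). Psmb8 was at 67.4, 65.1 and 99.8 CPM against 72.8, 76.9 and 59.7 CPM (-0.15 ± 0.20, adjusted p = 0.674). The 14 constitutive proteasome subunits measured beside them all had positive fold changes (median 0.45), and 0 of 14 passed with edgeR. Psmb7, the subunit with the smallest p, had an adjusted p of 0.109.

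The rest of the pathway was followed through 9 lists. The counts of calls below stand beside 5.03% of all genes tested called higher and 3.29% called lower with edgeR. Of 10 interferon ligand genes, 7 had 0 counts in every library (Ifnb1, Ifna1, Ifna2, Ifna5, Ifne, Ifnl2 and Ifnl3) and Ifng alone passed the filter (-1.29 ± 1.09, adjusted p = 0.479). None of 9 receptors and Janus kinases passed with edgeR, with a median log2 fold change of -0.01. Tyk2, a kinase of the type I receptor, had the smallest p of these (-0.31 ± 0.14, adjusted p = 0.199). None of 6 other interferon regulatory factors passed, nor did any of 10 brakes on the pathway (Irf2bp1, 0.33 ± 0.20, adjusted p = 0.333).

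Among 17 nucleic acid sensors and adaptors, 1 rose and 1 fell. Tmem173, the adaptor STING that responds to cytosolic DNA, was at 40.3, 24.9 and 24.1 CPM in controls and 69.5, 75.4 and 52.7 CPM in TGFalpha (1.15 ± 0.24, adjusted p = 0.0283). Tlr3, an endosomal sensor of double-stranded RNA, was at 68.9, 89.5 and 80.8 CPM against 37.2, 54.4 and 51.1 CPM (-0.75 ± 0.19, adjusted p = 0.0471). Neither gene overlapped between the groups. Leaving out control replicate 2 (adjusted p = 0.116) or 3 (0.130), or TGFalpha replicate 1 (0.0903) or 2 (0.0760), ended the call of Tmem173, and Tlr3 lost its call without any 1 library (0.0532 to 0.160).

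Of 40 other induced antiviral genes, 3 fell and 1 rose, with a median of -0.35. Samhd1, which depletes nucleotides needed by viruses, was at 203, 208 and 278 CPM in controls and 121, 131 and 146 CPM in TGFalpha (-0.79 ± 0.17, adjusted p = 0.0335). Helz2 (-0.77 ± 0.18) and Tdrd7 (-0.55 ± 0.13) also fell (adjusted p = 0.0413 and 0.0414). Ifitm2, a relative of Ifitm3 and named after its values were seen, rose from 46.2 ± 7.40 to 84.0 ± 18.3 CPM (0.86 ± 0.21, adjusted p = 0.0422). Helz2 and Tdrd7 lost their calls without any 1 library (0.0543 to 0.158), Samhd1 without any 1 but control replicate 1 (0.0528 to 0.135), and Ifitm2 without any 1 but TGFalpha replicate 3 (0.0889 to 0.147).

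Of 18 other interferon-gamma induced genes, 3 fell and 0 rose, with a median of -0.82. The 3 were the GTPase genes Gbp8 (65.3, 55.6 and 172 CPM against 24.1, 25.7 and 23.6 CPM), Gbp9 and Gbp11, whose log2 fold changes were -2.00 ± 0.40, -1.43 ± 0.33 and -1.90 ± 0.42 (adjusted p = 0.0260, 0.0377 and 0.0339). All TGFalpha libraries were below all controls for each of them. Without control replicate 3 Gbp8 kept its call with a log2 fold change of -1.31, while Gbp9 (-0.95, adjusted p = 0.0830) and Gbp11 (-1.22, 0.0559) lost theirs. Gbp8 lost its call without TGFalpha replicate 1, 2 or 3 (0.0967, 0.0721 and 0.0655). Gbp9 and Gbp11 lost theirs there too (0.0709 to 0.130), and Gbp9 also without control replicate 2 (0.0775). Reads of near-identical GBP copies may have been split among them by the counting. Single values within the chromosome 5 cluster (Gbp4, Gbp6, Gbp8, Gbp9, Gbp10 and Gbp11) are therefore uncertain, as are those of Ifit3 and Oas1a, which have close copies. Of 17 other MHC class I presentation genes, 1 fell, the class I gene H2-Q4 (-0.67 ± 0.17, adjusted p = 0.0492), which lost its call without any 1 library (0.0629 to 0.188). A span of another gene overlaps 4 of the 41 members (Stat2, Ifit1, Rtp4 and Gbp2), and without a stated strand setting their reads cannot be told apart there.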

How the data were processed

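Lung RNA of 6 samples was measured, 3 per group, and groups were taken from the titles. The values deposited by the authors are raw counts for 24061 gene identifiers, with no normalization. The submitters' processing notes name bcl2fastq, CASAVA 1.8, TopHat, DESeq and the mouse build mm10. The counting tool, its strand setting and the annotation are not given in the sources used here. Library totals ran from 21479006 to 24914322 counts, and identifiers without a symbol took 1.73 to 3.8% of them.

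Symbols and coordinates came from a RefSeq gene table (assembly GRCm38.p6, matching mm10), which named 23976 identifiers. All 41 members were matched, and 292 of 294 names in the 9 pathway lists and 15 marker lists. Groups were compared with edgeR 4.0.16 in R 4.3.3 (quasi-likelihood F test, TMM scaling, expression filter by group, group as the only term), with Benjamini-Hochberg adjustment over the 16089 genes tested, at 0.05. The fit was tested on simulated data. CPM are counts per 1000000 counts of the scaled library size. Alternatives were other scalings and filters, DESeq2 1.42.0, limma-voom (limma 3.58.1), a replicate block, leaving out abundant genes and leaving out each library. Exon lengths were those of the GENCODE basic set.

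Members and lists were chosen with earlier results of these data known. Given in full are members past the threshold and, per role group, the 3 with the smallest p and the 2 with the highest mean CPM. From each pathway list, up to 3 genes past the threshold or else the 1 with the smallest p are named. For 1 list that gene is not reported here. Other genes named with values were chosen after their values were seen.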

Additional observations from a re-analysis of the deposited data

How the results depend on the processing

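The median log2 fold change of the 41 genes was negative in every fit, from -0.74 to -0.30 with 1 library left out. Rsad2 passed the test in 11 of 16 alternatives (adjusted p 0.000435 to 0.149). With DESeq2, 1281 genes were higher and 1225 lower in TGFalpha, among them 7 members lower. With 1 library left out, 204 to 606 genes were higher and 34 to 482 lower, and among the members 0 to 1 were higher (Oasl1) and 0 to 2 lower. In settings added after seeing the data, leaving out control replicate 1 and TGFalpha replicate 1 together gave 307 genes higher, 166 lower and 0 members lower, and leaving out control replicate 1 and TGFalpha replicate 2 together gave 510, 340 and 3 (Rsad2, Mx1 and Gbp5). Irf9, near 0, changed sign with DESeq2 size factors (-0.0020), with DESeq2 (-0.0012), in the added settings (-0.043 and -0.073) and among the fits with 1 library left out (-0.074 to 0.12). Over those fits Iigp1 ranged from -0.93 to 0.27 and Psmb8 from -0.26 to 0.071, both positive without control replicate 3. The causes were not tested. With a replicate block, 2 members were lower (Rsad2, adjusted p = 0.0045, and Gbp4, 0.0353), and Tdrd7 (0.0758), Ifitm2 (0.0565) and H2-Q4 (0.0674) did not pass. Deviations of same-numbered libraries correlated at 0.42, -0.05 and 0.22. Control replicates 1 and 3 correlated best with the TGFalpha library of their own number, and control replicate 2 with a TGFalpha library of another number (0.38). The comparison was made from the control side only. The labels do not say what a number marks, and the block was kept as an alternative. Counts limit the precision for the 7 members under 10 CPM.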
